A study of Homo sapiens with 24 samples.

Results

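Heat shock chaperones were followed in U87 MG, an established human glioblastoma cell line, after proton therapy (PT) with or without Si306, an inhibitor of SRC family tyrosine kinases. The genes are HSPA6, HSPA1A, HSPA1B, HSPA1L, HSPA8, HSPB1, DNAJB1, HSPH1, BAG3 and HSP90AA1, taken by the gene name that the array gives each spot, with every probe of each name. The set was chosen by a measured value, the rise of HSPA6 with Si306 at 2 Gy. Values of U87 Si306 + 2 Gy are therefore given as a description, with no test. The array held 9 of the 10 genes, with 20 probes among 41000 gene probes and 30982 gene names, and all 20 probes passed the filter on dim probes. HSPA1B had no probe under its own name, but 2 of the 3 HSPA1A probes also list it, so these near-identical genes cannot be separated there.

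RNA was collected 24 h after treatment and measured on 2-colour Agilent arrays in 4 configurations with 2 arrays each. U87 2 Gy and U87 10 Gy received protons alone and were set against untreated U87 cells. The combined configurations, U87 Si306 + 10 Gy and U87 Si306 + 2 Gy, received 10 µM Si306 and protons and were set against cells given the same proton dose alone. No array held Si306 without protons. Treated RNA carried Cy5 and control RNA Cy3 on every array, so a log2 ratio is Cy5 over Cy3 and a dye effect is not balanced by swapped arrays. The PT arrays lay on slide 1 and the Si306 arrays on slide 2, so slide and Si306 cannot be told apart. Both PT configurations share untreated cells as their control.

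The 24 deposited scanner tables, labelled as 6 biological replicates a configuration, hold 3 scans of each of 8 arrays. An array is the replicate here. Whether the 2 arrays of a configuration come from separate cultures is not settled by the labels, so p-values may measure technical spread only. In bulk RNA, fewer cells of a type and less RNA per cell cannot be told apart. Each of the 10 markers listed for a glioblastoma line, such as VIM and NES, was well above background on every array, and so were 4 (CD3E, CD14, VWF and SYT1) of the 13 on the array among 15 markers listed for other cell types. Of the 7 such markers tested, 1 was higher and 1 lower in U87 2 Gy, 1 and 2 in U87 10 Gy, and 5 and 0 in U87 Si306 + 10 Gy (median log2 ratio 0.21), while median centring gave 0 and 6 (median -0.42), 0 and 7 (median -0.33), and 2 and 2 (median -0.06). In U87 Si306 + 2 Gy all 7 lay above 0, from 0.07 to 0.28. Their part in the results below was not tested. Markers of leukocytes (PTPRC), B cells (MS4A1), oligodendrocytes (MOG) and epithelia (CDH1) were well above background on none.

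Heat shock proteins are chaperones that keep unfolded proteins from aggregating and help them refold. HSP70 proteins bind and release their clients in cycles driven by ATP, J-domain proteins such as DNAJB1 load clients onto them, and nucleotide exchange factors such as BAG3 and HSPH1 release them, while HSP90 acts later on kinases and receptors, SRC kinases among them. Stress frees heat shock factor 1 from chaperones, and the factor then binds heat shock elements, inverted repeats of GAA, in the promoters of many of these genes.

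The promoters of HSPA6, HSPA1A, DNAJB1 and HSPA8 are shown because these genes gave the 3 largest rises and the largest fall among the members in U87 Si306 + 2 Gy. Each sequence is the 250 bases before the start in RefSeq (GRCh38.p14), 5′ to 3′ on the gene's strand: chr1:161524290-161524539 (+), chr6:31815293-31815542 (+), chr19:14518398-14518647 (−) and chr11:123062137-123062386 (−). Capitals mark GAANNTTC or TTCNNGAA, 2 inverted units of the element, and their runs of 3 units.
HSPA6: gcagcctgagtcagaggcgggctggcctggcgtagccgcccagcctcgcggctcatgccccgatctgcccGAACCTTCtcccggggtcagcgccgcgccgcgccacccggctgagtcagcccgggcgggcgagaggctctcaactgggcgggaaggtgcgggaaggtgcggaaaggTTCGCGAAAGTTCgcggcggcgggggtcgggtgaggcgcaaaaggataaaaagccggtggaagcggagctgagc
HSPA1A: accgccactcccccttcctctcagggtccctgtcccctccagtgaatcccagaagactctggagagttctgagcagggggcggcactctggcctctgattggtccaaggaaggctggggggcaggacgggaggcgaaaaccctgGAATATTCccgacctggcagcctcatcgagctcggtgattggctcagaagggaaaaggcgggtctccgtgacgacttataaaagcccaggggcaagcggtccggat
DNAJB1: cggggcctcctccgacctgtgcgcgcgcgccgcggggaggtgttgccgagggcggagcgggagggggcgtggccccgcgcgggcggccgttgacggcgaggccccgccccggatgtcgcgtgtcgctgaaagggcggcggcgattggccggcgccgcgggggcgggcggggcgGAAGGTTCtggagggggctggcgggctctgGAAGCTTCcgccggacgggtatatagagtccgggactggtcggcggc
HSPA8: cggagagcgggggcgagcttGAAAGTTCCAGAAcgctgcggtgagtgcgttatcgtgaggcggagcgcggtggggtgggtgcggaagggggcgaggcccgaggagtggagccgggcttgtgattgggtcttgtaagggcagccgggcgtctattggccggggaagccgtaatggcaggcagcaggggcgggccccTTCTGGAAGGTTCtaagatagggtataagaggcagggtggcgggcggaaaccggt

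The motif GAANNTTC stood in 5.78% of the 35116 promoters of the same length, TTCNNGAA in 6.62%, and 1 or the other in 11.6%. Each equals its own reverse complement, so both strands were searched at once. Of the 13 promoters of the 10 member genes, 8 held at least 1 of them, each of another gene (for DNAJB1 the 1 shown, of its 3), and HSPH1 and BAG3 held none in this window. Runs of 3 alternating units, searched on both strands and overlapping the shorter motifs, stood in 0.441% of the promoters. HSPA6 held 1 such run, HSP90AA1 held 1 and HSPA8 held 2. A match is a string of letters and not a measured binding site. The windows of HSPA1L and HSPA1A overlap on opposite strands, and 1 of the 13 matched promoters stood for each gene except DNAJB1 and HSP90AA1, which had more.

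The probes of HSPA6 and of the gene pair HSPA1A and HSPA1B are shown in lower case because HSPA6 gave the values that chose the set and the HSPA1A probes, of which these 2 also list HSPA1B, disagreed. They are, in the array's own coordinates (hg17, + strand), A_23_P114903 at chr1:158309213-158309272, A_24_P123616 at chr6:31892924-31892983 and A_24_P682285 at chr6:31892373-31892432. No annotation of that build was used here.
HSPA6 A_23_P114903: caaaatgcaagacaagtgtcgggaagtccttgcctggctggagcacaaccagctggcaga
HSPA1A A_24_P123616: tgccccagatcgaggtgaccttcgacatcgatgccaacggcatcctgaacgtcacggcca
HSPA1A A_24_P682285: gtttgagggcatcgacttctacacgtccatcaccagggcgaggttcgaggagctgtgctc
Whether the HSPA6 probe tells HSPA6 from its near-identical neighbour HSPA7 was not tested.

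HSPA6 encodes an HSP70 protein that is hardly made in unstressed cells and is strongly induced by proteotoxic stress. Its log2 ratios were -0.06 and 0.05 on the 2 U87 2 Gy arrays and -0.10 and -0.11 on the U87 10 Gy arrays. They were 1.42 and 1.495 in U87 Si306 + 2 Gy, a mean of 1.46 or 2.75-fold, and -0.15 and 0.08 in U87 Si306 + 10 Gy. With the outlier spots kept in the normexp fit the HSPA6 mean in U87 Si306 + 2 Gy was 0.59, below 2-fold. The arrays of U87 Si306 + 2 Gy stood far above the other 6, which lay around 0. Its unscaled mean Cy5 intensities were 1490 and 907 in U87 Si306 + 2 Gy and 197 and 203 in U87 Si306 + 10 Gy. On the PT arrays they lay between 234 and 328, and Cy3 stayed between 132 and 190 on all 8 arrays. Cy5 was brighter in U87 Si306 + 2 Gy for other members too. BAG3 A_23_P52552, at log2 ratios of -0.01 and 0.04 there, read 14300 and 8960 against 5330 and 5450 in U87 Si306 + 10 Gy. The unscaled gap is therefore not a measure of the rise. In the fit, HSPA6 differed from its control neither in U87 2 Gy (log2 ratio -0.01 ± 0.05 SE, n = 2 arrays, limma adjusted p = 0.924) nor in U87 10 Gy (-0.10 ± 0.05, adjusted p = 0.097). Its log2 ratio in U87 Si306 + 10 Gy was -0.04 ± 0.05 (adjusted p = 0.561), with a 95% interval from -0.15 to 0.08. Leaving out either U87 Si306 + 10 Gy array brought HSPA6 in U87 10 Gy to an adjusted p of 0.0437 at an unchanged -0.10, and it was also called there with the log ratio of the scanner software (-0.27, adjusted p = 0.0281) and without background subtraction (-0.11, adjusted p = 0.0435).

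**Figure D1:**
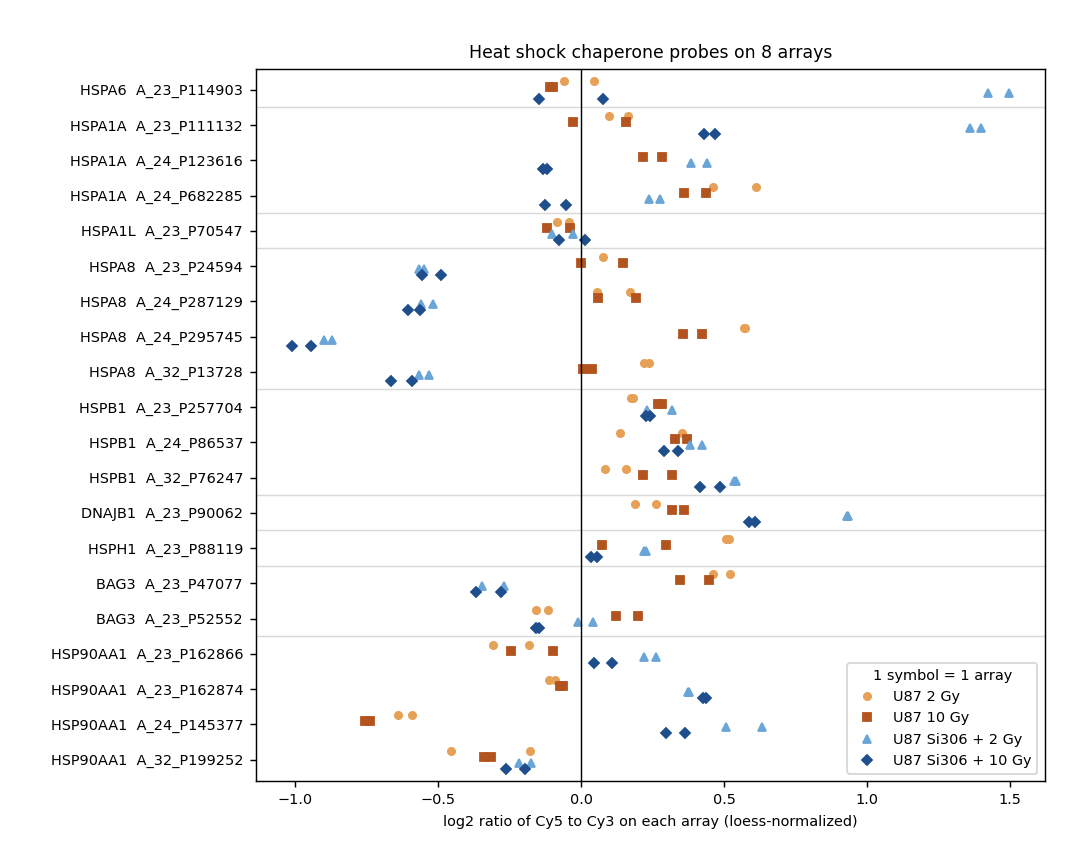
Log2 ratios of Cy5 (treated) over Cy3 (control) of the member probes on each of the 8 arrays, by configuration, with a line at 0. HSPA6 is at 1.42 and 1.495 in U87 Si306 + 2 Gy and between -0.15 and 0.08 on the other 6 arrays, while the HSPA8 probes lie below 0 in both Si306 configurations, a fall that turns to a rise for 3 of the 4 probes when the scans are centred on their median in place of loess.

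HSPA1A encodes the main stress-inducible HSP70, and its 3 probes disagreed. Probe A_23_P111132 read 1.40 and 1.36 in U87 Si306 + 2 Gy, a mean of 1.38 or 2.60-fold, the first value from the 1 scan of 3 that was not marked as an outlier. It read 0.47 and 0.43 in U87 Si306 + 10 Gy, where the rise of 0.45 ± 0.04 passed the test (limma adjusted p = 5.64e-06) but not with the log ratio of the scanner software (0.43, adjusted p = 0.238). On the PT arrays the probe was well above background in Cy3 on none and in Cy5 on 1 of the 2 arrays of each configuration, and it passed the filter through the Si306 arrays, so no test is read from it there. Its log2 ratios were 0.10 and 0.16 in U87 2 Gy and 0.16 and -0.03 in U87 10 Gy. The U87 2 Gy mean turned to -0.56 under median centring and was 1.26 with the log ratio of the scanner software, so no direction is given.

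The same probe stood apart in another way. RNA labelled as PT alone at 2 Gy was Cy5 on slide 1 and Cy3 on slide 2. Its A_23_P111132 intensity, with no background subtracted, was 94.2 and 83.2 on the former and 3980 and 3600 on the latter. On slide 1 it was well above background in Cy5 on 1 array of each dose, so the difference is given as a bound, with the dim side set to at least the lowest Cy5 intensity among probes well above background on that array. Less the median probe it was at least 72.3-fold, or 6.18 on the log2 scale. At 10 Gy the intensities were 84.3 and 78.1 against 4040 and 4110, at least 89.5-fold or 6.48 on the log2 scale. The other HSPA1A probes differed by 0.27 at 2 Gy and by 0.44 and 1.14 at 10 Gy, and every other member by between -1.44 and 0.96. Dye and slide differ between these readings as well, and the cause was not tested.

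**Figure D2:**
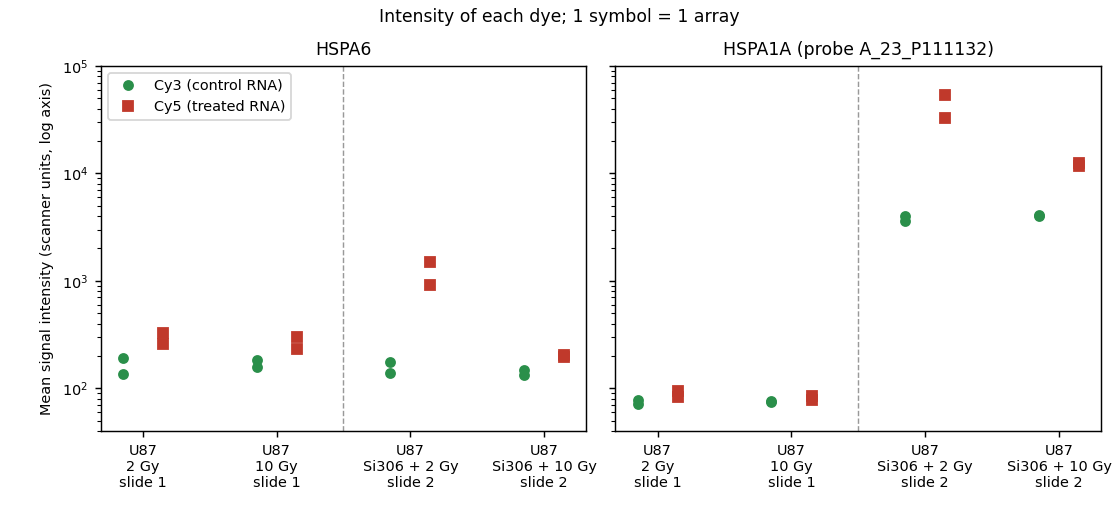
Mean spot intensity of HSPA6 and of HSPA1A probe A_23_P111132 on each array in Cy5 (treated RNA) and Cy3 (control RNA), on a log axis. HSPA1A A_23_P111132 lies below 100 in both dyes on the PT arrays and between 3600 and 4110 in Cy3 on the Si306 arrays, although that Cy3 RNA carries the label of PT alone, whereas HSPA6 rises in Cy5 in U87 Si306 + 2 Gy only.

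The HSPA1A probes that also list HSPA1B gave another picture. A_24_P682285 read 0.61 and 0.46 in U87 2 Gy and 0.44 and 0.36 in U87 10 Gy, rises of 0.54 ± 0.04 (adjusted p = 1.2e-06) and 0.40 ± 0.04 (adjusted p = 1.04e-05). It read 0.28 and 0.24 in U87 Si306 + 2 Gy, and -0.05 and -0.13 in U87 Si306 + 10 Gy, where the mean of -0.09 ± 0.04 did not pass (adjusted p = 0.0857). All 6 arrays outside U87 Si306 + 10 Gy lay above 0 and both of that configuration below. With the log ratio of the scanner software the PT rises of A_24_P682285 were 1.42 (adjusted p = 0.000122) and 0.98 (adjusted p = 0.000265). With the outlier spots kept in the normexp fit both calls were lost (0.05 and 0.22, adjusted p = 1 and 0.135). Under median centring U87 2 Gy gave 0.26 (adjusted p = 0.00424), the call in U87 10 Gy was lost (0.13, adjusted p = 0.0871) and U87 Si306 + 10 Gy was called (-0.22, adjusted p = 0.0115). A_24_P123616 was marked as an outlier in every scan of both U87 2 Gy arrays and has no value there. It read 0.28 and 0.22 in U87 10 Gy (0.25 ± 0.04, adjusted p = 0.000149) and 0.44 and 0.39 in U87 Si306 + 2 Gy. The U87 10 Gy value of A_24_P123616 was 0.51 by the scanner's log ratio and lost its call under median centring (0.10, adjusted p = 0.112) and with the outlier spots kept (0.14, adjusted p = 0.153). With Si306 and 10 Gy it read -0.12 and -0.14, and the fall of 0.13 on the log2 scale (adjusted p = 0.00992) was lost without either array (0.0649 and 0.101) and turned to 0.03 under median centring.

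HSPA1L, a close relative of HSPA1A that is known mainly from testis, was dim. Its log2 ratios ran from -0.12 to 0.01 over the 8 arrays, and none of the 3 tested configurations called it (limma adjusted p = 0.182, 0.095 and 0.478 for U87 2 Gy, U87 10 Gy and U87 Si306 + 10 Gy). With the log ratio of the scanner software HSPA1L was called lower in both PT configurations (-0.26, adjusted p = 0.0382, and -0.24, adjusted p = 0.0487), and median centring called it lower in all 3 (-0.61, -0.45 and -0.21, adjusted p = 6.4e-06, 5.51e-05 and 0.00633).

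HSPA8 encodes the constitutive HSP70 (HSC70) and was among the brightest genes on the array. Probe A_24_P295745, which the array lists for another transcript of the gene than the other 3 probes, read 0.57 and 0.57 in U87 2 Gy and 0.42 and 0.36 in U87 10 Gy. It read -0.87 and -0.90 in U87 Si306 + 2 Gy and -1.01 and -0.95 in U87 Si306 + 10 Gy. The PT arrays lay above 0 and the Si306 arrays below, with no overlap. Its rise was 0.57 ± 0.03 in U87 2 Gy (adjusted p = 1.65e-07) and 0.39 ± 0.03 in U87 10 Gy (adjusted p = 2.43e-06). It fell by 0.98 on the log2 scale in U87 Si306 + 10 Gy, to 0.507 of the control (SE 0.03, adjusted p = 6.63e-09), and remained below 0 under every scaling tried, at -0.61 under median centring (-0.37 in U87 Si306 + 2 Gy), where the PT rises of A_24_P295745 were 0.94 and 0.64.

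The other HSPA8 probes lie close together, and A_23_P24594 and A_24_P287129 have the same sequence. With Si306 and 10 Gy they fell by 0.53, 0.58 and 0.63 on the log2 scale for A_23_P24594, A_24_P287129 and A_32_P13728 (adjusted p = 2.58e-06, 5.96e-07 and 8.35e-08), but median centring in place of loess turned these to 0.22, 0.12 and 0.10. In U87 Si306 + 2 Gy they lay between -0.52 and -0.57 on single arrays, with the same change of sign. After protons alone their means lay between 0.02 and 0.23. A_24_P287129 was called in both PT configurations (0.11, adjusted p = 0.0368, and 0.13, adjusted p = 0.0229), calls lost without the first array of the configuration (adjusted p = 0.423 and 0.405). A_32_P13728 was called in U87 2 Gy alone (0.23 ± 0.03, adjusted p = 0.000147), and A_23_P24594, which rests on 1 array in U87 2 Gy, in neither. Under median centring both were called higher in both PT configurations, A_32_P13728 at 0.74 and 0.44 and A_23_P24594 at 0.65 and 0.50 (adjusted p of at most 4.34e-05). Over the alternatives A_24_P287129 ranged from 0.02 to 0.62 in U87 2 Gy and from 0.06 to 0.55 in U87 10 Gy.

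HSPB1 encodes HSP27, a small heat shock protein that holds unfolded clients without ATP. All 3 of its probes were higher in each tested configuration, with the same direction under each scaling. The means over probes ranged from 0.12 to 0.25 in U87 2 Gy, from 0.27 to 0.35 in U87 10 Gy and from 0.23 to 0.45 in U87 Si306 + 10 Gy (largest limma adjusted p = 0.0172, 9.73e-05 and 0.000142). The smallest of these, A_32_P76247 in U87 2 Gy, read 0.16 and 0.09 and lost its call without the first array (adjusted p = 0.20) and by the scanner's log ratio (0.06, adjusted p = 0.137). The largest there, A_24_P86537, read 0.35 and 0.14, and was at 0.14 without the first array (adjusted p = 0.0348). In U87 Si306 + 2 Gy the 3 means were 0.27, 0.40 and 0.54. Median centring raised the tested means of HSPB1 to between 0.53 and 1.04.

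DNAJB1 encodes HSP40, the J-domain partner of the inducible HSP70. It read 0.19 and 0.26 in U87 2 Gy and 0.36 and 0.32 in U87 10 Gy. It read 0.93 and 0.93 in U87 Si306 + 2 Gy and 0.61 and 0.59 in U87 Si306 + 10 Gy. Every array lay above 0, and both Si306 configurations lay above both PT configurations with no overlap. The rise passed the test in U87 2 Gy (0.23 ± 0.03, limma adjusted p = 0.000154), U87 10 Gy (0.34 ± 0.03, adjusted p = 5.96e-06) and U87 Si306 + 10 Gy (0.60 ± 0.03 or 1.51-fold, adjusted p = 1.09e-07). Median centring gave 0.55, 0.61 and 0.96 for DNAJB1. By label the control of the Si306 ratios is RNA of PT alone at the same dose. Less the median probe, DNAJB1 in that Cy3 RNA differed from the Cy5 RNA of the same label on the PT slide. The log2 difference was -0.42 at 2 Gy and -0.51 at 10 Gy, and whether the ratios add was not tested.

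HSPH1 encodes HSP110, a nucleotide exchange factor for HSP70. It read 0.51 and 0.52 in U87 2 Gy, 0.07 and 0.30 in U87 10 Gy, 0.23 and 0.22 in U87 Si306 + 2 Gy, and 0.03 and 0.06 in U87 Si306 + 10 Gy. The U87 2 Gy arrays stood above all others. The rise was 0.51 ± 0.05 in U87 2 Gy (adjusted p = 3.41e-06) and 0.19 ± 0.05 in U87 10 Gy (adjusted p = 0.00488), the latter lost without the second array (0.07, adjusted p = 0.20). In U87 Si306 + 10 Gy the mean of 0.05 ± 0.05 was not called (adjusted p = 0.422), while median centring gave 0.64 there (adjusted p = 9.97e-06), and 0.93 and 0.52 in U87 2 Gy and U87 10 Gy.

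BAG3, an exchange factor that couples HSP70 to selective autophagy, had 2 probes, which went opposite ways in U87 2 Gy. A_23_P47077 read 0.52 and 0.46 in U87 2 Gy, 0.35 and 0.45 in U87 10 Gy, -0.35 and -0.27 in U87 Si306 + 2 Gy, and -0.28 and -0.37 in U87 Si306 + 10 Gy. It rose in both PT configurations (0.49 ± 0.04, adjusted p = 1.41e-06, and 0.40 ± 0.04, adjusted p = 6.33e-06) and fell by 0.32 on the log2 scale in U87 Si306 + 10 Gy (adjusted p = 3.21e-05), a call lost under median centring (-0.04, adjusted p = 0.442), where its mean in U87 Si306 + 2 Gy turned to 0.07. The brighter probe A_23_P52552 read -0.12 and -0.16 in U87 2 Gy (-0.14 ± 0.04, adjusted p = 0.00593), 0.12 and 0.20 in U87 10 Gy (0.16 ± 0.04, adjusted p = 0.00211) and -0.16 and -0.15 in U87 Si306 + 10 Gy (-0.15 ± 0.04, adjusted p = 0.00274). The call in U87 2 Gy was lost without the second array (adjusted p = 0.074) and that in U87 10 Gy without the second array there (adjusted p = 0.063). Under median centring this probe turned to 0.20 in U87 2 Gy and 0.28 in U87 Si306 + 10 Gy, so that no single direction holds for BAG3. With the outlier spots kept the 3 calls of A_23_P47077 were lost (0.17, 0.21 and -0.10, adjusted p = 0.322, 0.133 and 0.803).

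HSP90AA1 encodes the inducible HSP90 alpha, and its 4 probes included the strongest fall after protons alone. A_24_P145377 read -0.64 and -0.59 in U87 2 Gy, -0.76 and -0.74 in U87 10 Gy, 0.63 and 0.51 in U87 Si306 + 2 Gy, and 0.36 and 0.30 in U87 Si306 + 10 Gy. All 4 PT arrays lay below 0 and all 4 Si306 arrays above. It fell by 0.62 on the log2 scale in U87 2 Gy (SE 0.04, limma adjusted p = 2.27e-07) and by 0.75 in U87 10 Gy (adjusted p = 4.27e-08), and rose by 0.33 ± 0.04 in U87 Si306 + 10 Gy (adjusted p = 2.32e-05), with the same signs under every scaling, though median centring gave -0.18, -0.40 and 0.91.

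After protons alone the other HSP90AA1 probes changed less. A_23_P162874, spotted 10 times on each array, was at -0.10 ± 0.03 in U87 2 Gy (adjusted p = 0.0155, lost without either array at 0.0561 and 0.11), at -0.07 in U87 10 Gy (adjusted p = 0.0743) and at 0.43 ± 0.03 in U87 Si306 + 10 Gy (adjusted p = 6.09e-07). A_23_P162866 was at -0.25 ± 0.04 in U87 2 Gy (adjusted p = 0.000592), at -0.17 ± 0.04 in U87 10 Gy (adjusted p = 0.00576, and 0.184 without the second array) and at 0.08 in U87 Si306 + 10 Gy (adjusted p = 0.156). Under median centring both probes turned positive in the PT configurations, between 0.21 and 0.31, and with Si306 and 10 Gy they rose to 0.98 for A_23_P162874 and 0.69 for A_23_P162866, the latter then called (adjusted p = 1.27e-06). A_32_P199252 was lower in all 3 tested configurations (-0.32, -0.33 and -0.23, adjusted p = 0.000414, 0.000298 and 0.00327), the last lost without the first array (adjusted p = 0.0598). Its U87 2 Gy arrays read -0.18 and -0.46. Median centring turned A_32_P199252 to 0.01 in U87 2 Gy and 0.11 in U87 Si306 + 10 Gy and left -0.05 in U87 10 Gy, with no call (adjusted p = 0.413).

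**Figure D3:**
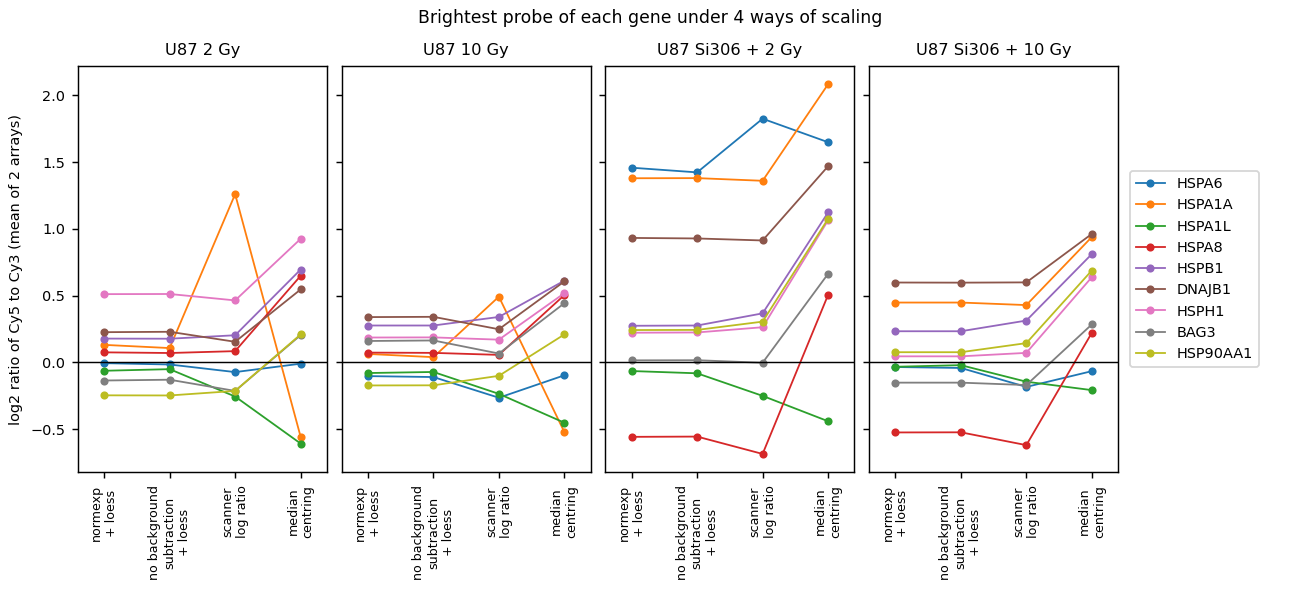
Mean log2 ratio of the brightest probe of each member gene, by configuration. The scalings are normexp with loess (as used), no background subtraction with loess, the scanner's log ratio and median centring. HSPA6 in U87 Si306 + 2 Gy runs from 1.42 to 1.83. HSPA8 A_23_P24594 in U87 Si306 + 10 Gy lies below 0 with loess and at 0.22 with median centring.

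Over all member probes, 16 of the 19 measured in U87 2 Gy passed limma's test at an adjusted p under 0.05, against 57.2% of all probes, with 11 higher and 5 lower, against 32.1% and 25.1%. These include HSPA1A A_23_P111132, and with the filter applied to the arrays of that comparison alone 15 of 18 passed, 10 of them higher, against 61.8% of the probes so kept. For U87 10 Gy, 14 of 20 passed, against 58.2% of all probes, with 11 higher and 3 lower, against 31.4% and 26.8%. For U87 Si306 + 10 Gy, 15 of 20 passed, against 60.9%, with 7 higher and 8 lower, against 33.1% and 27.8%. No member probe passed 2-fold in these comparisons, as 0.688%, 0.914% and 0.342% of all probes did. The median log2 ratio of the member probes was 0.12 in U87 2 Gy, 0.14 in U87 10 Gy and -0.03 in U87 Si306 + 10 Gy, beside 0.02 for all probes in each. With scans centred on their median the split was 14 higher and 3 lower, 13 and 3, and 12 and 3, where 82.9%, 79.8% and 82.3% of all probes were called, and with the log ratio of the scanner software 9 and 6, 9 and 5, and 7 and 8, where 54.5%, 54.6% and 58.2% were. With the outlier spots kept in the normexp fit 7, 7 and 11 member probes were called, and 11.1%, 12.3% and 13.6% of all probes. Probes of 1 gene are not independent.

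In U87 Si306 + 2 Gy, which chose the set, 13 of the 20 probes lay above 0 and 7 below. The 2 past 2-fold were HSPA6 and HSPA1A A_23_P111132, where 0.49% of all probes were past 2-fold upwards. The next below that limit were DNAJB1 at 0.93 (1.91-fold) and HSP90AA1 A_24_P145377 at 0.57 (1.48-fold). Nothing is read from these counts.

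Between the proton doses, U87 10 Gy minus U87 2 Gy, 4 of 19 member probes differed (limma adjusted p under 0.05), against 19.8% of all probes, with 1 higher and 3 lower, against 9.23% and 10.6%, and none was past 2-fold, as 0.0395% of all probes were. HSPH1 was lower at 10 Gy by a log2 difference of -0.33 ± 0.07 (adjusted p = 0.00577), and so were HSPA8 A_24_P295745 (-0.18, adjusted p = 0.0226) and HSPA8 A_32_P13728 (-0.21, adjusted p = 0.0116). BAG3 A_23_P52552 was higher (0.30 ± 0.05, limma adjusted p = 0.00206). All 4 calls were lost with the outlier spots kept in the normexp fit, where 1.19% of all probes were called. Without the second U87 10 Gy array 2 member probes and 10% of all probes were called, and with both arrays that held a scan of doubtful label left out, 1 and 8.02%. HSPA6 did not differ (-0.10, adjusted p = 0.379).

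Other genes of the chaperone system were taken from 7 lists (other HSP70, HSP90 and small heat shock proteins, J-domain proteins, chaperonins, co-chaperones, and heat shock factors with their regulators), of which 67 of 70 genes were tested, each by its brightest probe. In U87 2 Gy 25 were higher and 18 lower, in U87 10 Gy 29 and 15, and in U87 Si306 + 10 Gy 19 and 25, with medians of 0.04, 0.05 and -0.01. Of all probes 57.2%, 58.2% and 60.9% were called in these comparisons, and the counts of each list below stand beside the same shares. Under median centring these splits became 48 and 11, 51 and 8, and 44 and 12, so that the balance of directions depends on the scaling. Between the doses 12 were higher at 10 Gy and 4 lower, against 9.23% and 10.6% of all probes, and 4 and 4 under median centring, where 14% of all probes were called either way. Directions of the genes named from these lists held under each scaling unless a change of sign is given.

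With the normalization used, TRAP1, the mitochondrial HSP90, was the 1 gene of these lists past 2-fold in a tested comparison (U87 10 Gy). With the log ratio of the scanner software the small heat shock protein HSPB9 (1.18 in U87 2 Gy and 1.30 in U87 10 Gy) and CRYAB (1.37 in U87 Si306 + 10 Gy) were past it too, and with median centring CDC37 (1.05 in U87 2 Gy) and CRYAB (1.11). TRAP1 was past it in both PT configurations under both of these, at 1.17 and 1.14 in U87 2 Gy and 1.11 and 1.16 in U87 10 Gy. With the normalization used HSPB9 was only at 0.415 in U87 2 Gy and 0.521 in U87 10 Gy. TRAP1 read 0.97 and 0.99 in U87 2 Gy and 1.00 and 1.00 in U87 10 Gy, a mean of 1.00 ± 0.04 there (limma adjusted p = 2.29e-09), and -0.18 and -0.23 in U87 Si306 + 10 Gy (-0.21, adjusted p = 0.000397, and -0.50 by the scanner's log ratio). Between the doses it was not called (0.02, adjusted p = 0.831, turning to -0.05 with the log ratio of the scanner software). In its family HSP90AB1, the constitutive cytosolic HSP90, had the lowest value in U87 2 Gy at -0.13, turning to 0.29 under median centring. HSP90B1, the HSP90 of the endoplasmic reticulum, was at -0.24 in U87 10 Gy, also turning to 0.29, and at 0.22 in U87 Si306 + 10 Gy (0.97 under median centring).

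CRYAB, the small heat shock protein alpha B crystallin, had the largest rise of these lists in U87 Si306 + 10 Gy. It read 0.91 and 1.07 there (0.99 ± 0.04, adjusted p = 4.84e-08), against -0.23 and -0.21 in U87 2 Gy (-0.22, adjusted p = 0.00119) and -0.08 and -0.13 in U87 10 Gy (-0.11, adjusted p = 0.0496, turning to 0.02 under median centring), falls that were not called by the scanner's log ratio (CRYAB at -0.35 and -0.25, adjusted p = 0.0511 and 0.117). Both of its arrays with Si306 and 10 Gy lay above all PT arrays. HSPB8, the partner of BAG3, was higher in U87 10 Gy at 0.57 ± 0.07 (adjusted p = 2.36e-05) and was at -0.10 in U87 Si306 + 10 Gy (adjusted p = 0.21), where HSPB8 was at -0.55 by the scanner's own log ratio (adjusted p = 0.0679) and at -0.69 under median centring (adjusted p = 3.81e-05).

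Among the chaperonins, which fold actin and tubulin in the cytosol or act in mitochondria, 7 of 11 were lower and 0 higher in U87 Si306 + 10 Gy, against 27.8% and 33.1% of all probes, with a median of -0.15, while 9 were higher and 1 lower under median centring. The largest fall was that of TCP1, a subunit of the cytosolic ring, with -0.86 and -0.90 on the 2 arrays (-0.88 ± 0.03, adjusted p = 3.11e-08). Its sign held under each scaling, though median centring gave -0.32 for TCP1. After protons alone 7 chaperonins were higher and 3 lower in U87 2 Gy and 8 and 2 in U87 10 Gy. HSPE1, the mitochondrial co-chaperonin HSP10, led the rises at 0.43 ± 0.05 and 0.60 ± 0.05 (adjusted p = 1.94e-05 and 1.21e-06), and stood at 0.92 and 0.96 under median centring. CCT6A had the lowest values, -0.32 and -0.27, which turned to 0.12 and 0.09 under median centring.

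Among 20 co-chaperones, CDC37, which hands kinases to HSP90, was higher in both PT configurations (0.71 ± 0.04 and 0.72 ± 0.04, adjusted p = 8.32e-08 and 5.84e-08). ST13, which stabilises HSP70 bound to ADP, was lower in both (-0.55 ± 0.04 and -0.69 ± 0.04, adjusted p = 8.48e-07 and 1.42e-07), by less under median centring (-0.15 and -0.37). With Si306 and 10 Gy the immunophilin FKBP4 had the highest value (0.44 ± 0.04, adjusted p = 1.54e-06, and 0.80 under median centring) and AHSA2 the lowest (-0.49 ± 0.04, adjusted p = 1.01e-06), a call that median centring lost (-0.08, adjusted p = 0.208). Of the co-chaperones 7 were higher and 8 lower in U87 2 Gy, 6 and 5 in U87 10 Gy, and 7 and 6 in U87 Si306 + 10 Gy, against 57.2%, 58.2% and 60.9% of all probes called either way. Median centring gave 14 and 4, 14 and 4, and 12 and 2, where 82.9%, 79.8% and 82.3% of all probes were called.

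Of the 9 tested HSP70 relatives 6 were higher and 1 lower in U87 2 Gy, 5 and 2 in U87 10 Gy, and 3 and 5 in U87 Si306 + 10 Gy. Median centring gave 7 and 0, 8 and 1, and 5 and 1, where 82.9%, 79.8% and 82.3% of all probes were called. With loess HSPA4L, an exchange factor of the HSP110 kind, was at 0.34 ± 0.04, 0.69 ± 0.04 and 0.31 ± 0.04 in these configurations (limma adjusted p = 2.17e-05, 8.76e-08 and 4.35e-05). HYOU1, an HSP70 relative of the endoplasmic reticulum, had the highest value in U87 2 Gy at 0.45, and the mitochondrial HSPA9 the lowest at -0.33, turning to 0.08 under median centring. HSPA13 was lowest in U87 Si306 + 10 Gy at -0.42, but at -0.03 under median centring (adjusted p = 0.472), and HSPA2 in U87 10 Gy at -0.21. Between the doses HSPA14 was highest at 0.40 and HSPA5, the HSP70 of the endoplasmic reticulum, lowest at -0.33.

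Of 14 J-domain proteins 0 were higher and 3 lower in U87 2 Gy, 4 and 3 in U87 10 Gy, and 5 and 4 in U87 Si306 + 10 Gy, while median centring gave 9 and 2, 12 and 1, and 12 and 2. DNAJB5 had the highest value in U87 Si306 + 10 Gy (0.58 ± 0.04, adjusted p = 1.78e-07) and DNAJB12 the lowest (-0.66 ± 0.05, adjusted p = 4.27e-07), at 0.95 and -0.27 under median centring. DNAJC7 was lowest in U87 2 Gy at -0.50 and differed most between the doses (0.42), and DNAJA2 was lowest in U87 10 Gy at -0.36. Median centring gave -0.19 for DNAJC7 in U87 2 Gy and -0.08 for DNAJA2 in U87 10 Gy, where its call was lost (adjusted p = 0.0995). DNAJA1 was lower at 10 Gy than at 2 Gy by 0.28 on the log2 scale. Of the regulators, HSBP1, which binds heat shock factor 1, was higher in U87 2 Gy, U87 10 Gy and U87 Si306 + 10 Gy (0.30, 0.27 and 0.23, and 0.76, 0.65 and 0.80 under median centring), and HSF2 was at -0.10 in the last, turning to 0.27 under median centring.

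**Figure D4:**
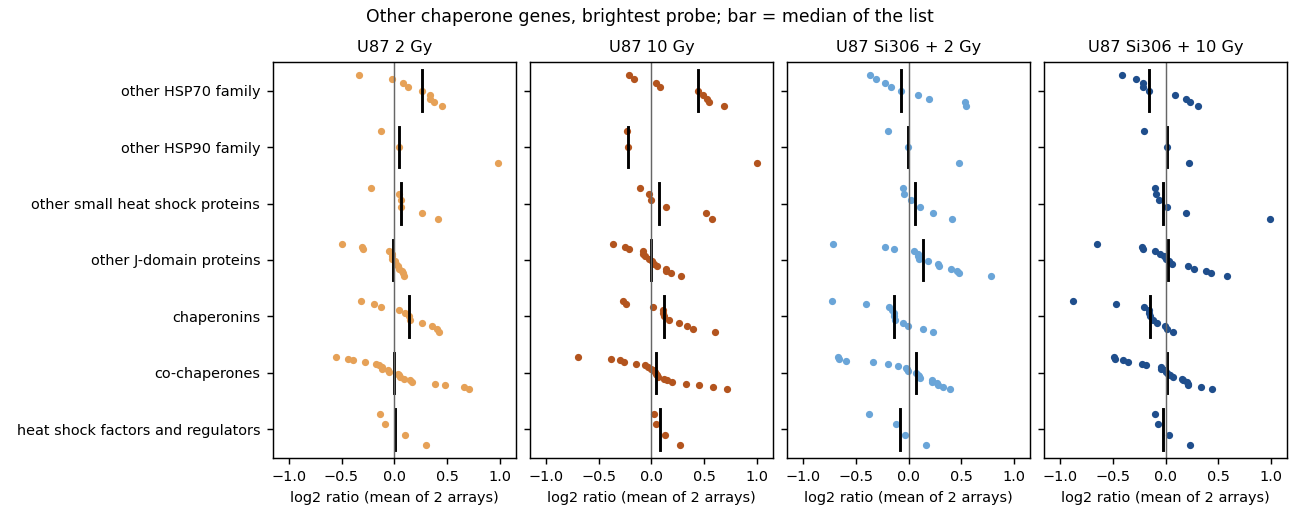
Log2 ratios of the other chaperone genes by list in U87 2 Gy, U87 10 Gy and U87 Si306 + 10 Gy, each gene by its brightest probe, with a line at 0. TRAP1 lies highest in both PT configurations at 0.98 and 1.00, CRYAB highest in U87 Si306 + 10 Gy at 0.99 and TCP1 lowest there at -0.88, with the same signs under median centring, whereas many values near 0 change sign there.

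The probes whose ratios over the 8 arrays were most like those of HSPA6 were sought among 1977 probes with at least 0.5 of its SD, and the Pearson r of the 5 highest ran from 0.983 to 0.988. DLX3, a homeobox factor, was the 1 with a gene name (r = 0.987), and the other 4 carry identifiers only. DLX3 read 1.14 and 1.09 in U87 Si306 + 2 Gy and between -0.02 and 0.15 on the other 6 arrays. The likeness describes the 2 arrays of U87 Si306 + 2 Gy, which stand apart from the other 6. Those 6 lie on both slides and have the same dye orientation.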

How the data were processed

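The 4 configurations were hybridised on 8 Agilent arrays with 2 dyes. The authors deposited tables of Agilent Feature Extraction (9.5.3.1 per the file headers) with mean signal intensity and local background of each dye for 45015 spots, and a log10 ratio after the software's own correction. The deposited series matrix holds the same log10 ratio rounded, within 0.005. Intensities were used here. The headers show the 24 files to be 3 scans of each array, where separate arrays had been planned for, so scans were averaged. Of them 22 were used, since 2 bear a label that goes against their array.

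Outlier spots, 2.98% to 5.73% in each scan, were dropped ahead of normexp (offset 50), and loess was run within each scan. This step was chosen after the data were seen: all 247 spots lying more than 100 below their local background carried such a mark, and with them the fitted mean fell far below 0 and ratios of dim probes shrank. At most 0.0115% of spots were saturated, and Cy3 was well above background for 56.8% to 64.8% of probes, which limits dim genes. Spots of 1 probe were averaged. Probes well above background in either dye on at least 2/3 of the arrays of a configuration were kept (30418 of 41000). limma 3.58.1 in R 4.3.3 (statmod 1.5.0, and data.table in version 1.17.8) was fitted to the arrays with Benjamini-Hochberg adjustment over all kept probes (residual degrees of freedom 4, prior 6.79, prior SD 0.0548), and was tested on simulated data. Calls needed an adjusted p under 0.05. Log2 values are ratios of intensity, not levels. Figures were drawn with matplotlib 3.10.9 in Python 3.11.15.

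The members and lists were chosen with earlier results of these data known. Named were every member probe, list genes past 2-fold, the genes with the largest positive and negative ratio of each list and comparison (those not printed are in the counts), and the 5 probes most like HSPA6, of which those without a gene name are not printed. Alternatives were no background subtraction, median centring, the scanner's log ratio, the series matrix, other filters, 1 probe a gene name, single scans, labelled scans as replicates with and without a replicate block, and leaving out each array.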

Additional observations from a re-analysis of the deposited data

Results flagged for a closer look

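Between the proton doses (U87 10 Gy minus U87 2 Gy), 4 of 19 member probes differed by limma's test of the difference itself, against 19.8% of all probes. The count was 2 without the second U87 10 Gy array (10% of all probes), 1 without both arrays that held a disagreeing scan (8.02%) and 0 with the outlier spots kept in the normexp fit (1.19%). HSPH1 had a log2 difference of -0.326, HSPA8 A_24_P295745 of -0.182, HSPA8 A_32_P13728 of -0.207 and BAG3 A_23_P52552 of 0.295.

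The control dye of the Si306 arrays, which no comparison reads alone, held a signal for HSPA1A A_23_P111132 above that of the RNA with the same label on the PT slide. Less the median probe, the log2 difference was at least 6.176 at 2 Gy and at least 6.484 at 10 Gy, and its cause was not tested.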

How the results depend on the processing

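Of 1606 values of member probes under 21 alternatives, 1419 kept their side of the threshold (and direction where called) or moved by less than the spread. Of the rest 61 lost the call, 48 gained it, 59 moved and 19 reversed. Direction was not checked for values called under neither setting, such as HSPA6 in U87 2 Gy, which ran from -0.07 to 0.05. All 19 reversals came from median centring in place of loess, which called 82.9%, 79.8% and 82.3% of all probes in U87 2 Gy, U87 10 Gy and U87 Si306 + 10 Gy. In U87 2 Gy the reversed values were -0.557 for HSPA1A A_23_P111132, 0.204 for BAG3 A_23_P52552, and 0.209, 0.314 and 0.013 for HSP90AA1 A_23_P162866, A_23_P162874 and A_32_P199252. In U87 10 Gy they were -0.522 for HSPA1A A_23_P111132, and 0.209 and 0.271 for HSP90AA1 A_23_P162866 and A_23_P162874. In U87 Si306 + 2 Gy they were 0.505, 0.481 and 0.48 for HSPA8 A_23_P24594, A_24_P287129 and A_32_P13728, 0.072 for BAG3 A_23_P47077 and 0.277 for HSP90AA1 A_32_P199252. In U87 Si306 + 10 Gy they were 0.033 for HSPA1A A_24_P123616, 0.221, 0.122 and 0.103 for the same HSPA8 probes, 0.284 for BAG3 A_23_P52552 and 0.108 for HSP90AA1 A_32_P199252. The cause was not tested.

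The counts called (16, 14, 15 and, between the doses, 4) became 6, 5, 5 and 2 with 1 probe a gene name, where 9 were tested (57%, 57.3%, 62.2% and 21% of all names called), the 6 including HSPA1A A_23_P111132, from which no test is read in U87 2 Gy. Normexp fitted with the outlier spots kept, an alternative added after the data were seen, gave 7, 7, 11 and 0, while the share of all probes called was 11.1%, 12.3%, 13.6% and 1.19%. A filter on the arrays of each comparison alone, also added then, gave 15 of 18, 14 of 19, 15 of 20 and 4 of 18. Between the doses, leaving out both arrays that held a disagreeing scan gave 1. Leaving out each array gave 12 to 16, 12 to 15, 13 to 16 and 2 to 4. HSPA6 in U87 Si306 + 2 Gy (1.458) became 1.649 with median centring, 1.825 with the scanner's log ratio and with the series matrix, 0.589 with the outlier spots kept, and 1.421 to 1.495 without either of its arrays. A lone array left in a configuration was assumed to vary like the others. Members past 2-fold under an alternative were 2 in U87 2 Gy with the scanner's log ratio or the series matrix, and 1 in U87 Si306 + 10 Gy with median centring or without its second array.

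Every labelled scan as a replicate gave 18, 19, 17 and 8, and 18, 20, 17 and 7 with the replicate number as a block. Deviations of 36 pairs of scans with the same number had a median correlation of 0.003 (-0.239 to 0.225). For the 180 pairs with other numbers it was -0.003 (-0.767 to 0.439). Of 24 scans 8 correlated best with their own number. This check cannot exclude a pairing, since the number of such matches to be had without one was not worked out. With 2 arrays a configuration, 1 dye orientation and 1 slide for each treatment, neither dye nor slide effects could be separated from treatment.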
